A study of Caenorhabditis elegans with 6 samples.

Results

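The degenerin and epithelial sodium channel (DEG/ENaC) genes described here are *unc-105*, *unc-8*, *del-1*, *deg-1*, *asic-1*, *asic-2*, *delm-1*, *delm-2* and *flr-1*. They were chosen by name as channel genes of this family outside the *mec* genes of the touch neurons, and all 9 were found among the 46904 genes of the count tables. The worms were wild-type Bristol N2 hermaphrodites that were 3 days old when they were moved to plates with *Escherichia coli* OP50 alone (OP50, the control) or with OP50 mixed with a *Lactococcus lactis* strain. The strain was the non-nisin-producing LL100933 (OP50 + LL100933) or the nisin-producing LL12007 (OP50 + LL12007), and feeding lasted 5 days. RNA of about 200 pooled whole worms per group was sequenced after poly(A) selection, in 2 libraries for each of the 3 groups. The sample labels give the first strain a slightly different number, and the name in the study's methods is used here. It is not stated whether the pair of libraries in a group stems from separate cultures, so p-values cover only differences between the libraries sequenced, part of which may be technical.

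DEG/ENaC subunits cross the membrane at both ends of a large extracellular loop and assemble in groups around a pore that lets sodium through and is blocked by amiloride. Some are opened by mechanical force on the cell or its surrounding matrix, some by protons and some by peptides. In *C. elegans* the family was found through dominant mutations that keep a channel open and make the cell swell and degenerate, or make a muscle contract without pause. Family members act in touch, pain, posture and the rhythm of defecation, and the question put to the data here is what the mixed diets did to their transcripts in the whole animal.

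The sequences printed are the real-time PCR primers that the study listed for *unc-105*, the only one of these genes for which the study gave primers. They are shown because they define the stretch of this transcript that the study also assayed outside the sequencing. Both are written 5′ to 3′, and their gene lies on chromosome II.
forward primer of *unc-105*: ttacacgactggagacggcg
reverse primer of *unc-105*: agctgcatgtgaaattccgtgg
The forward primer has 20 bases and the reverse primer 22, and no position within the transcript was derived for them.

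The libraries held 14929196 to 21691687 counts, and 14899 genes had enough counts to be tested. OP50 replicate 2 stood apart on the first principal component of the log counts (48.2% of the variance), at -52.5 where the other libraries ranged from -21.2 to 35.3. Relative to counting noise, the OP50 libraries differed more from each other (chi-square over degrees of freedom 43.9, over genes) than those of OP50 + LL100933 (20.1) and OP50 + LL12007 (5.0). Where leaving out a library changed a channel's call, the value without it is given beside the result.

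The channels were weakly expressed in the whole animal. Levels are given as counts per kilobase of exon and per 1000000 counts of the TMM-adjusted library size (RPKM). The mean level over the 6 libraries was 3.67 for *unc-105*, 2.6 for *flr-1*, 2.10 for *deg-1* and 1.79 for *asic-2*. It was 1.17 for both *unc-8* and *asic-1*, 1.05 for *del-1*, 0.160 for *delm-2* and 0.0817 for *delm-1*. Among the 22505 genes with any count, *unc-105* stood at percentile 52.6 and *delm-1* at percentile 13. Neighbours in this order overlapped over the libraries, with the exception of *del-1* and *delm-2*, so neighbours from *unc-105* down to *del-1* cannot be ranked by their ranges. Genes farther apart could be, as *unc-105*, *flr-1* and *deg-1* were each above *unc-8* in their whole range, and *asic-2* was above *unc-8* in 6 of 6 libraries.

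**Figure D1:**
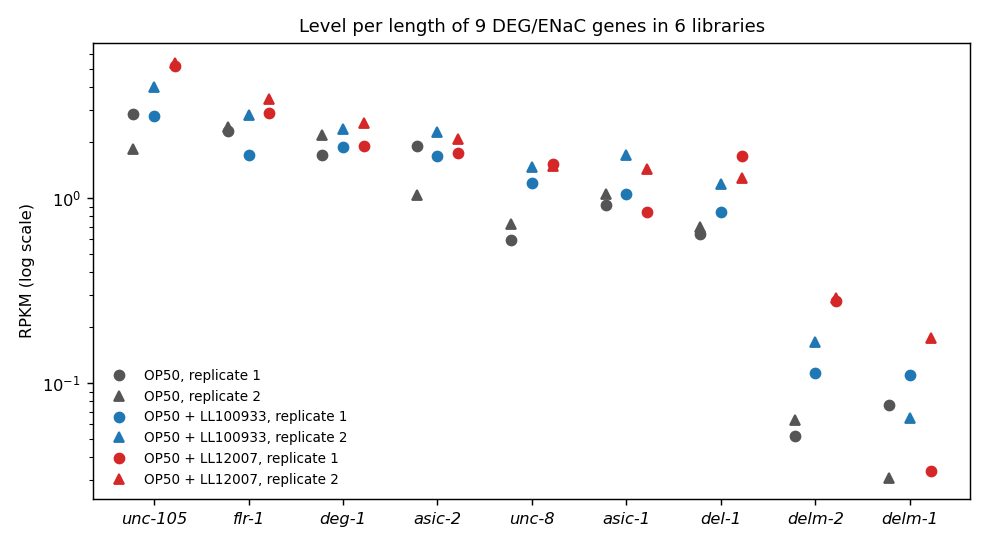
Level of each of the 9 channel genes in each library, in RPKM on a log scale, coloured by diet, with circles for replicate 1 and triangles for replicate 2. *unc-105* reaches its highest levels in the OP50 + LL12007 libraries, and *delm-1* and *delm-2* lie below the other genes in every library.

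At the top of the order, *unc-105* was above *flr-1* in 5 of 6 libraries. The exception was OP50 replicate 2, with 1.84 for *unc-105* and 2.41 for *flr-1*. In OP50, *flr-1* (2.36 ± 0.0752, SD, n = 2) and *unc-105* (2.35 ± 0.720) had the same level per length within their spread. In OP50 + LL100933, *unc-105* (3.39 ± 0.868) was above *flr-1* (2.27 ± 0.781) in both libraries, though their ranges overlapped. In OP50 + LL12007, *unc-105* (5.26 ± 0.111) lay above *flr-1* (3.17 ± 0.400) in both libraries. The share of *unc-105* in the summed level of the 9 genes was 25.8% and 18.3% in the OP50 libraries, 24.4% and 24.9% in OP50 + LL100933 and 32.2% and 29.5% in OP50 + LL12007. The level summed over the other 8 genes was 8.22 and 8.21 in OP50, 8.59 and 12.1 in OP50 + LL100933 and 10.9 and 12.8 in OP50 + LL12007.

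Fed OP50 + LL12007, worms had more transcript of *unc-105*, *unc-8* and *del-1* than worms fed OP50, each by a little over 1 on the log2 scale. These were the 3 genes that rose among the 7 tested, and none fell. *deg-1*, *asic-1*, *asic-2* and *flr-1* did not pass the test, with intervals that overlap those of the called genes. Of all tested genes, 16.5% were called in this comparison, 8.76% higher and 7.71% lower. The median log2 fold change was 0.42 over the tested channels and 0.02 over all tested genes. It was 0.53 over the body wall muscle markers described below and 0.42 over the neuron markers. The number of channels called was 2 without either OP50 library and 0 without either OP50 + LL12007 library.

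Fed OP50 + LL100933, worms had no channel gene called in either direction by edgeR's quasi-likelihood test, where 6.62% of all tested genes were called, 4.38% higher and 2.24% lower. *unc-8* was the 1 channel with an unadjusted p under 0.05 in that test, where 4686 of the 14899 tested genes were in either direction. DESeq2 on all 6 libraries also called none and had the same 1 channel at that level. Low counts left *unc-8* and 3 others without an adjusted p in that DESeq2 fit. The median over the tested channels was 0.47 on the log2 scale against 0.02 over all tested genes, and 6 of the 7 channels had a positive value. Over the muscle markers and over the neuron markers the median was 0.57. Both comparisons use the same OP50 libraries, so their values are given side by side and not as independent results.

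**Figure D2:**
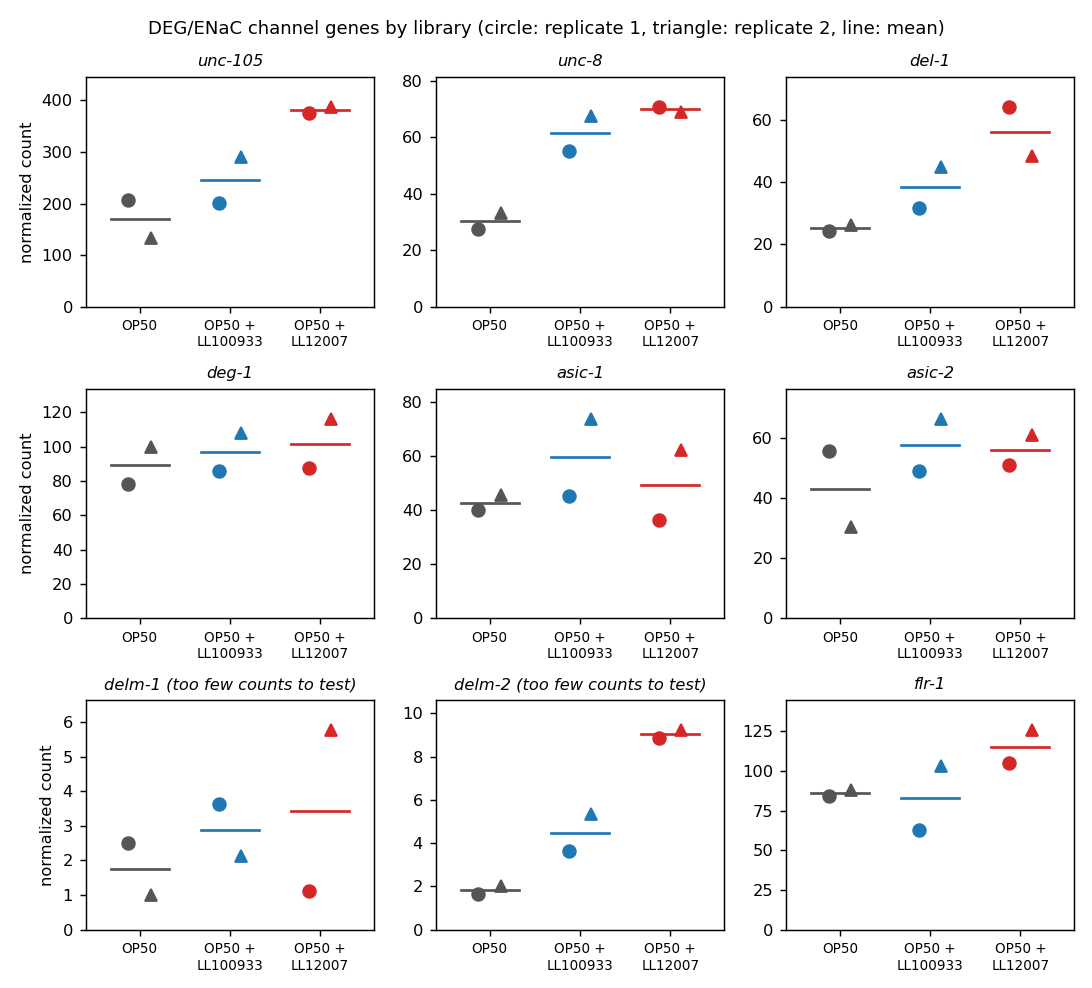
Normalized count (counts scaled to the mean library size, axes from 0) of each channel gene by diet, with a circle for replicate 1, a triangle for replicate 2 and a line at the mean of the pair. The OP50 + LL12007 libraries of *unc-105*, *unc-8*, *del-1*, *flr-1* and *delm-2* lie above both OP50 libraries, and those of *deg-1*, *asic-1*, *asic-2* and *delm-1* overlap them.

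*unc-105* encodes a degenerin of body wall muscle. Its gain-of-function alleles make the muscles contract excessively, and mutations in the type IV collagen gene *let-2* suppress them. The gene lies on chromosome II from 8116356 to 8122904 on the forward strand of ce11, and its 13 annotated transcripts merge into 17 exon blocks of 4141 bp, none of which overlaps another gene's exon.

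Counts of *unc-105* were 249 and 132 in OP50, 222 and 271 in OP50 + LL100933, and 340 and 336 in OP50 + LL12007. Scaled to library size, these were normalized counts of 207 and 133, 201 and 290, and 376 and 387. Both OP50 + LL12007 libraries lay above all 4 others and close to each other, and the OP50 + LL100933 libraries overlapped those of OP50.

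The log2 fold change of *unc-105* against OP50 was 1.16 with OP50 + LL12007 (SE 0.24, 95% interval 0.61 to 1.70, edgeR adjusted p = 0.0239). With OP50 + LL100933 it was 0.52 (SE 0.24, interval -0.03 to 1.06, adjusted p = 0.176). Between the mixed diets the difference was 0.64 in favour of OP50 + LL12007 (interval 0.11 to 1.17), with an unadjusted p of 0.0239 and an adjusted p of 0.407 by the same edgeR test, so a difference between the strains was not called.

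The low value of OP50 replicate 2 mattered to these figures. Without it the difference with OP50 + LL12007 was 0.89 (adjusted p = 0.0429), and with OP50 + LL100933 it was 0.27 (adjusted p = 0.468). A fit without a library leaves 1 in its group, which is then assumed to vary like the libraries of the other diets. Without OP50 replicate 1 they were 1.51 and 0.87, and the second had an adjusted p of 0.0377. Without replicate 1 or replicate 2 of OP50 + LL12007 the size stayed at 1.18 and 1.16 and the adjusted p was 0.0920 and 0.219.

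*unc-8* encodes a degenerin of motor neurons. Dominant alleles of it make worms uncoordinated, and it takes part in the removal of synapses when GABA motor neurons are remodelled. It lies on chromosome IV from 7197153 to 7203643, and the only gene that overlaps its exons, R13A1.15 on the other strand, had 0 counts in every library.

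Counts of *unc-8* were 33 and 33 in OP50, 61 and 63 in OP50 + LL100933, and 64 and 60 in OP50 + LL12007. The normalized counts were 27.5 and 33.4, 55.3 and 67.5, and 70.8 and 69.1. Every library of either mixed diet lay above both OP50 libraries, and the mixed diets were next to each other without overlap.

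Against OP50 the log2 fold change of *unc-8* was 1.20 with OP50 + LL12007 (SE 0.28, interval 0.58 to 1.83, edgeR adjusted p = 0.0266). It was 1.01 with OP50 + LL100933 (SE 0.28, interval 0.39 to 1.64), where the adjusted p of 0.0552 just missed the threshold. The mixed diets differed by 0.19 (interval -0.40 to 0.78, edgeR adjusted p = 0.836), so the interval allows a change in either direction. Without replicate 1 or replicate 2 of OP50 + LL12007 the first difference was 1.19 and 1.24 and missed the threshold, with an adjusted p of 0.124 and 0.228.

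*del-1* encodes a subunit made in motor neurons, the VB class among them, and is expressed together with *unc-8* in some of them. It lies on chromosome X from 14268081 to 14277040, with no overlapping exon of another gene.

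Counts of *del-1* were 29 and 26 in OP50, 35 and 42 in OP50 + LL100933, and 58 and 42 in OP50 + LL12007. The normalized counts were 24.1 and 26.3, 31.7 and 45.0, and 64.1 and 48.4. The 3 diets did not overlap, with OP50 lowest and OP50 + LL12007 highest.

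For *del-1* the log2 fold change against OP50 was 1.16 with OP50 + LL12007 (SE 0.33, interval 0.43 to 1.89, edgeR adjusted p = 0.0425) and 0.60 with OP50 + LL100933 (SE 0.33, interval -0.15 to 1.35, adjusted p = 0.244). Between the mixed diets it was 0.56 (interval -0.15 to 1.27, adjusted p = 0.566). This was the least secure of the 3 calls. It was lost with DESeq2 on all 6 libraries (1.16, adjusted p = 0.0571) and on leaving out any 1 of the 4 libraries compared, where the adjusted p was 0.0640 and 0.0797 without OP50 replicate 1 and 2 and 0.234 and 0.228 without OP50 + LL12007 replicate 1 and 2. Counting error alone is 16.1% of the mean count of *del-1*, against 6.22% for *unc-105*.

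**Figure D3:**
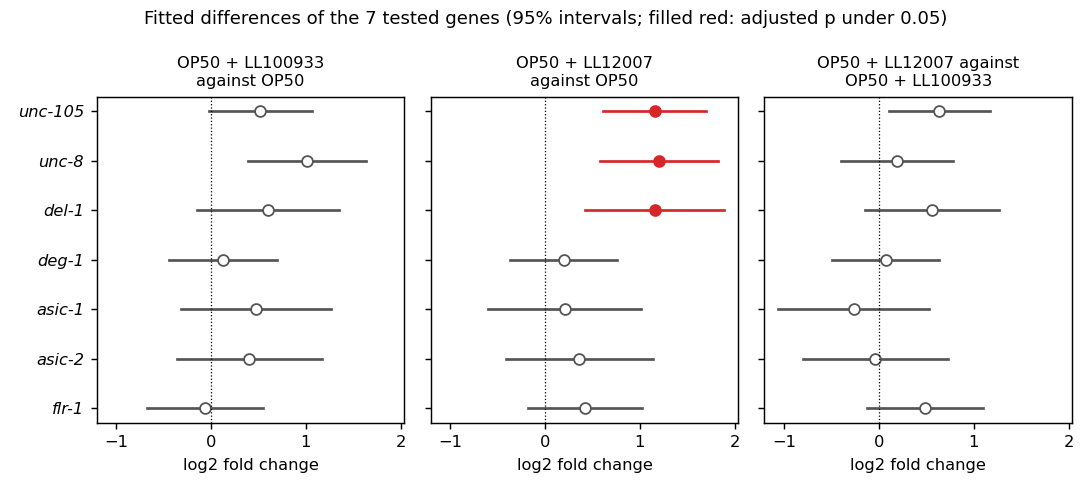
Log2 fold change (horizontal axis) of the 7 tested channel genes in the 3 comparisons, with 95% intervals from the fit and filled red points where the adjusted p is under 0.05. Filled points appear in the comparison of OP50 + LL12007 with OP50 alone, at *unc-105* (1.16), *unc-8* (1.20) and *del-1* (1.16), and all but 2 of the other intervals include 0.

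*deg-1* encodes a degenerin whose dominant allele makes a set of interneurons degenerate, and which carries mechanically evoked current in the nociceptor ASH. Its normalized counts were 78.2 and 100.05 in OP50, 86.1 and 108 in OP50 + LL100933, and 87.3 and 116 in OP50 + LL12007. In each diet replicate 2 was above replicate 1, and the 3 diets overlapped. The log2 fold change was 0.12 with OP50 + LL100933 (interval -0.44 to 0.69) and 0.20 with OP50 + LL12007 (interval -0.37 to 0.76). On chromosome X, from 7763187 to 7774915, its exons share 57 bp with *mec-7* on the other strand, which had 942 to 1618 counts a library, and no source used here says how reads in that stretch were assigned.

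The acid-sensing channel relatives *asic-1* and *asic-2* did not separate the diets either. *asic-1*, which acts in dopaminergic neurons, had normalized counts of 39.9 and 45.5 in OP50, 45.3 and 73.9 in OP50 + LL100933, and 36.5 and 62.2 in OP50 + LL12007. *asic-2* had 55.8 and 30.3, 49.0 and 66.4, and 50.9 and 61.1. For both genes each mixed diet overlapped OP50.

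The fits gave *asic-1* a log2 fold change of 0.47 with OP50 + LL100933 and 0.21 with OP50 + LL12007 (intervals -0.31 to 1.26 and -0.60 to 1.02). For *asic-2* the values were 0.40 and 0.36 (intervals -0.36 to 1.17 and -0.41 to 1.14). These intervals reach beyond 1, so the data allow a doubling of either gene at this depth and number of libraries. Both genes lie on chromosome I, *asic-1* from 3769681 to 3773876 and *asic-2* from 7480108 to 7483392.

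*flr-1* encodes a channel of the intestine whose mutants resist fluoride and have a disturbed defecation rhythm. Its normalized counts were 84.1 and 87.9 in OP50, 62.6 and 103 in OP50 + LL100933, and 105.02 and 126 in OP50 + LL12007. Both OP50 + LL12007 libraries were above OP50, and the OP50 + LL100933 libraries lay on either side of it. The log2 fold change was 0.42 with OP50 + LL12007 (interval -0.18 to 1.02, edgeR adjusted p = 0.271) and -0.06 with OP50 + LL100933 (interval -0.67 to 0.55, adjusted p = 0.893). The gene lies on chromosome X from 13452667 to 13456658 on the reverse strand.

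*delm-1* and *delm-2*, which act in glia that ensheath nose touch neurons, had too few counts for the test. *delm-2* had 2 and 2 counts in OP50, 4 and 5 in OP50 + LL100933, and 8 and 8 in OP50 + LL12007, so that the diets did not overlap. Pooled over the pair of libraries and corrected for library size, the ratio to OP50 was 4.95 with OP50 + LL12007 (95% exact binomial interval 1.60 to 20.3) and 2.42 with OP50 + LL100933 (0.676 to 10.8), and these intervals cover counting error only. *delm-1* had 3 and 1 counts in OP50, 4 and 2 in OP50 + LL100933, and 1 and 5 in OP50 + LL12007, which does not separate the diets at this depth. *delm-2* lies on chromosome I from 4109407 to 4112385, and its nearest family gene is *acd-1*, 1361 bases away, with 6 to 13 counts a library. *delm-1* lies on chromosome IV from 9132600 to 9135477.

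Of the 7 tested channels, 4 had OP50 + LL12007 libraries that did not overlap those of OP50 and lay above them (*unc-105*, *unc-8*, *del-1* and *flr-1*), and 0 lay below. Over all tested genes 34.6% were higher and 33.9% lower in this way. With OP50 + LL100933 there were 2 (*unc-8* and *del-1*), and 0 below, beside 29.2% and 29.9% of all tested genes. Between the mixed diets OP50 + LL12007 was above without overlap for 4 (*unc-105*, *unc-8*, *del-1* and *flr-1*), and below for 0, beside 24.6% and 21.9% of all tested genes. No channel passed the edgeR test between the mixed diets, where the share called among all tested genes was 0% and 1530 genes had an unadjusted p under 0.05. DESeq2 on all 6 libraries had 1 channel under that unadjusted level, as edgeR had.

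The channels were also compared by how near their values ran from library to library. As a measure of likeness, log2 CPM (counts per 1000000) values were centred on each gene's mean. The root mean square difference over the 6 libraries was taken, so that a smaller value means nearer values. This measure also depends on how much each gene varied, so genes that varied little come out near. The SD of the centred values was 0.214 for *deg-1* and 0.592 for *unc-105*. Among the 21 pairs of tested channels the closest were *deg-1* and *asic-1* (0.212), *unc-8* and *del-1* (0.222) and *deg-1* and *flr-1* (0.231), and the farthest were *unc-105* and *asic-1* (0.558). The 6 libraries share diets and library effects, so these values describe the courses and carry no test.

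Against all tested genes, *unc-105* was closest to *shl-1* (0.0692), a Shal potassium channel, and then to *acr-8* (0.0714), a nicotinic acetylcholine receptor subunit. Next came *mlc-6* (0.0804), of the myosin light chain family, then *Y102A11A.5* (0.0805) and *T01C8.2* (0.0855). The closest channel, *del-1* (0.254), was in position 578 and *unc-8* (0.341) in position 1827. The log2 fold change with OP50 + LL12007 was 1.05 for *shl-1*, 1.04 for *acr-8*, 0.99 for *mlc-6*, 1.05 for *Y102A11A.5* and 1.0 for *T01C8.2*, where *mlc-6* missed the edgeR threshold (adjusted p = 0.0698). Being picked for their likeness to *unc-105*, these genes are no separate evidence of its change.

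Of 21 further DEG/ENaC genes found, 20 were tested, and edgeR called 1 higher in worms fed OP50 + LL100933 and 2 in those fed OP50 + LL12007, where 4.38% and 8.76% of all tested genes were. None was called lower, 0 had an unadjusted p under 0.05 in that direction, and 5 did in the other direction in each comparison. Over all 14899 tested genes, 4686 and 5502 had an unadjusted edgeR p under 0.05 in either direction. The median log2 fold change of these family genes was 0.45 and 0.52, and 16 and 17 of the 20 had a positive value. *egas-2* was not tested, with 2 counts in 1 OP50 library and 0 in the others. The most abundant of them, *del-6*, had a mean normalized count of 1492 ± 333 in OP50 and 1625 in OP50 + LL12007, and this difference was -0.08 without OP50 replicate 2 and 0.37 (adjusted p = 0.0436 by edgeR) without OP50 replicate 1.

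The call shared by both diets was *degt-1*, which acts in touch receptor neurons and other mechanosensory cells. Its normalized counts were 44.1 and 33.4 in OP50, 76.2 and 80.3 in OP50 + LL100933, and 82.9 and 84.1 in OP50 + LL12007, so the OP50 libraries lay apart below the rest. The log2 fold change was 1.0 (SE 0.26, edgeR adjusted p = 0.0487) and 1.10 (SE 0.26, adjusted p = 0.0271). The first call was lost in most alternatives, among them each fit without 1 library other than OP50 replicate 1.

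*del-10* rose with OP50 + LL12007 (0.76, SE 0.17, edgeR adjusted p = 0.0263), from normalized counts of 262 and 261 in OP50 to 428 and 458, and had 293 and 406 in OP50 + LL100933 (0.42, adjusted p = 0.140). With OP50 + LL12007 the further family genes called numbered 5 without OP50 replicate 1, 1 without OP50 replicate 2 and 0 without either OP50 + LL12007 library. The touch neuron channels *mec-4* and *mec-10* were among the family genes that were not called. *mec-4* had 0.63 with OP50 + LL100933 and 0.69 with OP50 + LL12007 (edgeR adjusted p = 0.118 and 0.0799). With OP50 + LL100933 it had 1.01 without OP50 replicate 1 and 0.37 without OP50 replicate 2. In that comparison edgeR with no filter on low counts called it (adjusted p = 0.0391). *mec-10* had 0.27 and 0.56 (edgeR adjusted p = 0.546 and 0.189). In the gene ontology annotation of the count tables, 33 genes carried the term sodium channel activity and 28 were tested. With OP50 + LL12007, 6 of them rose, namely *unc-105*, *unc-8*, *del-1*, *degt-1*, *del-10* and *tmc-1*, and after feeding OP50 + LL100933 *degt-1* and *tmc-1* did, beside 8.76% and 4.38% of all tested genes called higher. All but *tmc-1* are genes already described above.

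DEG/ENaC channels work with stomatin-like and MEC-6-like proteins, which bind them or help them reach the membrane. Of 14 such genes 13 were tested, and none was lower by edgeR, 0 also at an unadjusted p under 0.05. *mec-2*, the stomatin partner of the touch channel, rose by 0.77 with OP50 + LL100933 and 0.69 with OP50 + LL12007 on the log2 scale (edgeR adjusted p = 0.0359 and 0.0266). *unc-1*, a stomatin that interacts genetically with *unc-8*, rose by 0.73 and 0.72 (adjusted p = 0.0339 and 0.0223). *sto-5*, another stomatin, rose with OP50 + LL12007 (0.86, adjusted p = 0.0409). The median over the 13 was 0.41 and 0.35, and 4.38% and 8.76% of all tested genes were called higher.

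These calls depended on single libraries and on the fit. With OP50 + LL100933, *mec-2* was lost with edgeR on the pair of diets (adjusted p = 0.0894) and *unc-1* with that fit (0.0837). Both were lost without either OP50 + LL100933 library (adjusted p 0.0527 and 0.190 for *mec-2*, 0.0648 and 0.179 for *unc-1*) and without either OP50 + LL12007 library (0.0849 and 0.0793, and 0.0800 and 0.0727). With OP50 + LL12007, *mec-2*, *unc-1* and *sto-5* were lost without either library of that diet (adjusted p 0.0852 to 0.253 over the 3 genes). Without OP50 replicate 2, *mec-2* had an adjusted p of 0.0508 and *sto-5* had 0.63 (adjusted p = 0.118).

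Basement membrane components were examined because *unc-105* is tied to them through *let-2*. Of 11 tested genes edgeR called none with OP50 + LL100933, where 1 was higher and 1 lower at an unadjusted p under 0.05. With OP50 + LL12007 4 were higher at that level and 1 rose, *unc-52*, the perlecan of muscle attachment (0.68, adjusted p = 0.0296). That call was lost without either OP50 + LL12007 library (adjusted p = 0.111 and 0.261). The share of all tested genes called higher was 4.38% in the first comparison and 8.76% in the second. An unadjusted edgeR p under 0.05, in either direction, was found for 4686 and 5502 of the 14899 tested genes. Set beside these shares, the counts do not mark the list out. The medians over the 11 basement membrane genes were -0.06 and 0.12. *let-2* itself had 0.32 and 0.43 and was not called by edgeR (adjusted p = 0.187 and 0.0757). With OP50 + LL12007 it was called by DESeq2 on all 6 libraries (adjusted p = 0.00509) and on the pair (0.0126), and by edgeR with no filter on low counts (0.0245) and without OP50 replicate 1 (0.52, 0.0129).

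Among 7 genes known to regulate these channels or act with them, 1 was called in each comparison. The share of all tested genes called higher was 4.38% after OP50 + LL100933 and 8.76% after OP50 + LL12007. With so few genes, 1 call does not set this list apart from that share. At an unadjusted edgeR p under 0.05, 2 were higher and 0 lower with OP50 + LL100933. With OP50 + LL12007, 4 were higher and 1 lower at that level. Over all 14899 tested genes, 4686 and 5502 reached it in either direction. *unc-4*, a homeodomain repressor that keeps *del-1* off in VA motor neurons, rose after feeding OP50 + LL100933 (1.16, edgeR adjusted p = 0.0471) and had 0.95 with OP50 + LL12007 (adjusted p = 0.0530). Its call was lost with library totals (adjusted p = 0.0509), with no robust shrinkage (0.0537), with edgeR on the pair (0.115) and on leaving out any 1 of the 6 libraries (0.0551 to 0.229), and DESeq2 gave it no adjusted p. *flr-4*, a kinase of the defecation rhythm that shares mutant traits with *flr-1*, rose with OP50 + LL12007 (0.84, adjusted p = 0.0446). That call was lost with DESeq2 on the pair (adjusted p = 0.0560), without OP50 replicate 1 or 2 (0.0602 and 0.0787) and without OP50 + LL12007 replicate 1 or 2 (0.228 and 0.244). The medians over the 7 were 0.24 and 0.78.

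Whole-worm RNA mixes tissues, and fewer cells of a type and less RNA per cell cannot be told apart in it. The summed markers of body wall muscle and of neurons were higher in both mixed diets, and those of intestine with OP50 + LL12007 only. The summed level of 12 body wall muscle markers was 9398 to 12287 CPM in OP50, 15945 to 16269 in OP50 + LL100933 and 14952 to 15525 in OP50 + LL12007. That of 14 neuron markers was 1401 to 1680, 2078 to 2337 and 2018 to 2143. The OP50 libraries were the lowest for both lists, without overlap.

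Of all tested genes edgeR called 4.38% higher and 2.24% lower with OP50 + LL100933, and 8.76% and 7.71% with OP50 + LL12007. Beside this, OP50 + LL100933 had 2 of 12 muscle and 4 of 14 neuron markers called higher and OP50 + LL12007 had 4 and 5, while none of either list was lower, 0 also at an unadjusted p under 0.05. Glia markers (8 of 9 tested, *mir-228* at 0 in every library) had summed levels of 175 to 182, 184 to 200 and 207 to 211 CPM, with 0 and 2 called higher. Intestine markers, 9 in all, had 4987 to 5791, 5687 to 5743 and 6304 to 6357, with 1 called higher in the first comparison and 1 lower in the second. Germline markers went the other way, with 2 of 12 called lower with OP50 + LL100933 and 11 of 12 with OP50 + LL12007, and summed levels of 3028 to 3440, 2180 to 2593 and 1989 to 2188. Of 7 epidermis markers tested, 3 rose and 1 fell with OP50 + LL12007 and none was called with OP50 + LL100933, where 1 was higher and 1 lower at an unadjusted p under 0.05. The median log2 fold change with OP50 + LL100933 and with OP50 + LL12007 was 0.57 and 0.53 over the muscle markers and 0.57 and 0.42 over the neuron markers. It was 0.41 and 0.53 for glia, 0.04 and 0.20 for intestine, 0.23 and 0.59 for epidermis, and -0.45 and -0.62 for germline. The part of these shifts in the channel results was not tested.

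Channel counts were also set against the summed markers of a tissue, as a description chosen after the data had been seen. Per 10000 counts of the muscle markers *unc-105* had 9.63 and 8.11 counts in OP50, 7.21 and 10.2 in OP50 + LL100933, and 14.4 and 14.2 in OP50 + LL12007. The OP50 + LL12007 libraries were above the other 4, and the OP50 + LL100933 libraries lay around those of OP50, which they also overlapped in normalized counts. With 2 libraries against 2 the smallest p that an exact two-sided test allows is 0.333, so these ratios are given without one.

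For the channels of neurons the same ratio was taken to the neuron markers. *unc-8* had 9.34 and 13.6 in OP50, 15.2 and 16.5 in OP50 + LL100933, and 20.0 and 18.4 in OP50 + LL12007, which keeps all 3 diets apart. *del-1* had 8.21 and 10.7, 8.72 and 11, and 18.1 and 12.9, so OP50 + LL100933 overlapped OP50 and OP50 + LL12007 did not. For the other 3 the mean of the pair was lower in both mixed diets than in OP50, with no test. Their OP50 libraries had 26.6 and 40.8 for *deg-1*, 13.6 and 18.5 for *asic-1*, and 18.96 and 12.4 for *asic-2*. Both mixed diets overlapped OP50 for *asic-1* and *asic-2*, so a fall is not shown for them. For *deg-1*, OP50 + LL12007 overlapped OP50, and OP50 + LL100933 (23.7 and 26.4) lay just below OP50 replicate 1. The mean was 33.7 in OP50, 25.1 in OP50 + LL100933 and 27.9 in OP50 + LL12007 for *deg-1*, 16.1, 15.3 and 13.5 for *asic-1*, and 15.7, 14.8 and 15.3 for *asic-2*.

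*flr-1* per 10000 intestine marker counts had 8.29 and 10.1, 6.28 and 10.2, and 9.44 and 11.4, with all diets overlapping. The marker lists hold genes of the whole tissue and not of the motor neuron classes in which *unc-8* and *del-1* are made.

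**Figure D4:**
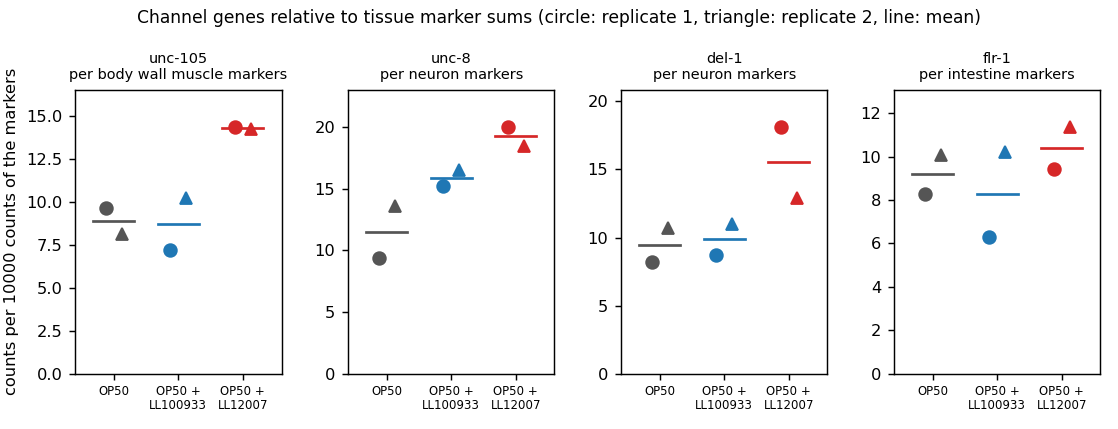
Counts of *unc-105*, *unc-8*, *del-1* and *flr-1* per 10000 counts of the markers of body wall muscle, neurons, neurons and intestine, by diet, with circles and triangles for replicates 1 and 2, a line at the mean, and axes from 0. For *unc-105* the OP50 + LL12007 libraries (14.4 and 14.2) lie above the other 4, and for *flr-1* the diets overlap.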

How the data were processed

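The values are whole-number counts per gene, deposited by the authors for each of 6 libraries and not normalized. Reads were 150 bp paired-end and came from a stranded kit. The authors trimmed them, aligned them to ce11 (WBcel235) with STAR and counted reads per gene by featureCounts. The submitters' processing notes give Trim Galore 0.6.5, Trimmomatic 0.39, cutadapt 2.7, STAR 2.7.2b and featureCounts 1.6.4, and the paper gives other versions. For the strand setting and reads with several matches, the choice is not given in the sources used here. Gene positions and lengths are those of the count tables.

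The filterByExpr function of edgeR 4.0.16, run in R 4.3.3, chose the genes, which were fitted over all 6 libraries with TMM factors and a term for diet, with glmQLFit (robust) and 3 residual degrees of freedom. P-values of glmQLFTest were adjusted by Benjamini and Hochberg over the 14899 tested genes, with a threshold of 0.05. Standard errors came from dividing a fitted log2 difference by the root of its F statistic, and the 95% intervals use the moderated degrees of freedom. For normalized counts, each library was scaled to the average TMM-adjusted size, and levels per kilobase use the exon length in the tables. Levels per kilobase and CPM values were also computed from the TMM-adjusted library sizes. Centred log2 CPM values used a prior count of 2. The fit was also run on simulated data, and as no outcome is reported here, that run is no evidence on its error rate. Alternatives were DESeq2 1.42.0 on all 6 libraries or on each pair of diets, edgeR on each pair, other size factors, other filters, no robust shrinkage, a replicate block, and leaving out each library. They were applied to the channels, the other family genes and the genes most like *unc-105*, and to the named genes of the associated lists, but not to the counts of those lists, the markers or the ontology count.

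The channels and the gene lists were chosen with earlier results of these data known. Named genes are all 9 channels, the called genes of the other family and of the 3 associated lists (with the most abundant family gene and *let-2*, named as context after their values were seen), *tmc-1* from the ontology count, and the 5 genes most like *unc-105*. The ratios to marker sums were chosen after the data had been seen. The intestine marker *opt-2* was not matched. Fold changes tabulated by the authors were not used.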

Additional observations from a re-analysis of the deposited data

How the results depend on the processing

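Leaving out 1 library at a time gave 0 to 1 channels called higher with OP50 + LL100933 and 0 to 3 with OP50 + LL12007, where the 0 came without either OP50 + LL12007 library. For *unc-105* it gave 0.25 to 0.87 and 0.89 to 1.51 on the log2 scale, and for the other family genes 0 to 2 and 0 to 5 called higher. Without a filter on low counts, 2 channels were higher with OP50 + LL100933 (*unc-105*, 0.54, adjusted p = 0.0439, and *unc-8*, 1.03), 2 other family genes were, and 1 channel was higher between the mixed diets (*unc-105*, 0.63, adjusted p = 0.0256). DESeq2 on each pair of diets called 1 channel and 1 other family gene higher with OP50 + LL12007, and gave 4 channels no adjusted p. The 1 other family call with OP50 + LL100933, *degt-1*, was lost with library totals, edgeR on the pair, no robust shrinkage and the replicate block. Both DESeq2 fits gave *degt-1* no adjusted p (log2 fold change 1.01 and 1.02), so they could not call it. The causes were not tested.

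Replicate numbers were not shown to pair the libraries (correlations of same-numbered deviations of -0.00, -0.06 and 0.20 between diets). With the replicate block, 340 genes in place of 986 were called with OP50 + LL100933 and 1922 in place of 2454 with OP50 + LL12007, and 0 and 2 channels were higher, *del-1* having 1.16 with an adjusted p of 0.0600. The block also ended the calls of *unc-1* and *unc-4* with OP50 + LL100933 (adjusted p = 0.0514 and 0.0650) and of *sto-5* and *flr-4* with OP50 + LL12007 (0.0618 and 0.0639).

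Directions that turned on leaving out a library were of genes not called. With OP50 + LL100933 and without OP50 replicate 2, *del-6*, given above, also turned to -0.11 and *mec-10* to -0.02. With OP50 + LL100933 against OP50, *deg-1* ranged from -0.049 (without OP50 replicate 1, and -0.03 without OP50 + LL100933 replicate 2) to 0.33 and *flr-1* from -0.45 to 0.26. With OP50 + LL12007, *deg-1* ranged from -0.0059 to 0.39 and *asic-1* from -0.20 to 0.54. Between the mixed diets, *deg-1* ranged from -0.15 (-0.09 without OP50 + LL100933 replicate 1) to 0.26, *asic-1* from -0.70 to 0.12 (0.07 without OP50 + LL12007 replicate 1) and *asic-2* from -0.25 to 0.19 (0.09 without that library).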
